A study of Gallus gallus with 72 samples.

Results

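Growth of breast muscle in the first weeks after hatch was followed in White Plymouth Rock chickens, 1 of the parental breeds of meat chickens. Breast muscle taken 21 days after hatch (D21, 6 libraries) was compared with breast muscle taken 1 day after hatch (D1, 6 libraries), so that 12 of the 72 RNA sequencing libraries of the series were used. The other libraries came from Cornish birds, from the crossbred of both breeds and, in all 3 breeds, from embryonic day 17 (E17) and day 42 (D42). Breed and stage of each library were taken from its label. All 12 libraries were labelled as male broilers, and no treatment, genotype or diet was named. The source name speaks of myofibroblasts, but the extraction protocol describes frozen muscle tissue, and the libraries are treated here as whole tissue. The labels do not state whether the 6 libraries of a stage came from separate birds, so each p-value measures only the spread between these libraries. In whole tissue, fewer cells of a type and less RNA per cell cannot be told apart.

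The breast muscle of the chicken is built almost entirely of fast fibres that draw on glycogen and glucose for short bursts of wing movement. Around hatch the chick lives on the lipid of the yolk sac, and it then changes to a diet rich in carbohydrate. Fibres in the embryo and hatchling still hold slow, cardiac and embryonic forms of contractile proteins, which are replaced as the fibres mature. After hatch the number of fibres is largely set, and the muscle grows by enlarging fibres, to which satellite cells, the stem cells of muscle, add nuclei.

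Nearly every second gene measured differed between the stages. Of 11452 genes tested, 5712 (49.9%) were called, meaning an adjusted p under 0.05: 2675 (23.4%) were higher and 3037 (26.5%) were lower at D21. By at least 2-fold, 1161 genes (10.1%) were higher and 1047 (9.14%) lower. The 6 D21 libraries lay wholly above the 6 D1 libraries for 1516 genes (13.2%) and wholly below them for 1574 (13.7%). The split into higher and lower genes depends on scaling between libraries. With TMM, which discounts a few very abundant genes and is used throughout, the median log2 fold change of all genes was -0.05. With library totals alone the median moved to -0.27, and 1714 genes were higher and 4362 lower. The 10 most abundant genes of a library held 18.2% to 24.8% of its counts at D21 and 9.11% to 14.6% at D1. Levels below are CPM, counts scaled to library size after TMM, and log2 fold changes are D21 minus D1 ± their standard error. Rose and fell are used of called genes. Counts within the gene lists below stand beside 23.4% higher and 26.5% lower over all genes tested. List counts given with library totals stand instead beside 1714 higher and 4362 lower of 11452, and list medians beside -0.27. Lists and their members were chosen with earlier results of these data known. A list's excess over these shares is therefore a description and not a test.

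Total counts ran from 51531261 to 57024315 over the 12 libraries, and 10968 of the 12046 genes in the table had counts in all of them. The stages separated on the first principal component, which held 54.4% of the variance. D1 libraries 1 and 6 stood apart from the other D1 libraries on components 2 and 3 (9.77% and 8.74%), and D21 library 6 stood apart on component 4 (4.86%). D1 libraries varied more than D21 libraries: the median SD of a gene on the log2 scale was 0.235 at D21 and 0.338 at D1. No 2 libraries held identical counts.

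Markers of muscle fibres were present in every library. The 11 markers in the table summed to 36384 to 56384 CPM at D21 and 27538 to 33311 CPM at D1. Of 11 tested, 4 rose and 3 fell, with a median log2 fold change of 0.19. The sign of that median turned with library totals, to -0.05, while the median of all genes tested moved to -0.27. MYLPF, the fast regulatory light chain, had 10697 to 16692 CPM (median 12792) at D21 and 4266 to 6566 CPM (median 5392) at D1 (log2 fold change 1.26 ± 0.15, adjusted p = 1.99e-05). TCAP, the titin cap protein of the Z-disc, rose more (2.39 ± 0.59, adjusted p = 0.00448), with 479.8 CPM in D1 library 1 against at most 165 CPM in the other D1 libraries. MB, which encodes the oxygen store myoglobin, was scarce at both stages and fell (-2.66 ± 0.85, adjusted p = 0.0185), though the call was lost without D1 library 2 (-1.44, adjusted p = 0.0857) and with the replicate number as a block (-1.65, adjusted p = 0.178). Of 16 markers on the list, 11 were in the table, and others named for muscle, such as ACTA1 and CKM, were not analysed here.

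Most contractile genes of fast fibres rose, while many slow, cardiac and embryonic forms fell. Among fast contractile genes, of 18 tested, 11 rose and 2 fell, with a median log2 fold change of 0.65. MYL1, the fast essential light chain, had 13987 to 22309.6 CPM (median 16423) at D21 and 3878 to 9288 CPM (median 6765) at D1 (log2 fold change 1.37 ± 0.21, adjusted p = 0.000132). TPM1, alpha-tropomyosin, had 13192 to 24037 CPM (median 17819) at D21 and 5189 to 7399 CPM (median 6450.1) at D1 (log2 fold change 1.55 ± 0.17, adjusted p = 8.17e-06). In both genes all D21 libraries lay above all D1 libraries. TMOD4, which caps thin filaments (1.91 ± 0.18, adjusted p = 3.03e-06), and MYLK4, a myosin light chain kinase (2.31 ± 0.35, adjusted p = 0.000134), did so too, and TNNT3 (1.31 ± 0.24), TNNI2 (1.24 ± 0.22) and MYBPC2 (1.12 ± 0.14) of the fast thin and thick filament rose. The 2 that fell were MYH1C, a fast myosin heavy chain that is 1 of several near-identical neighbours on chromosome 18, so that reads may be shared among them, with 1662 to 2905 CPM (median 2417) at D21 and 3421 to 11461 CPM (median 6586) at D1 (log2 fold change -1.56 ± 0.26, adjusted p = 0.000253), and SMPX, a small muscle protein linked in mammals to mechanical load (-2.97 ± 0.34, adjusted p = 1.55e-05).

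Among slow, cardiac and embryonic contractile genes, of 23 tested, 5 rose and 12 fell, with a median log2 fold change of -1.42, and each of the 12 fell by at least 2-fold. The summed level of the list overlapped between stages, with 8134 to 11784 CPM (median 9529) at D21 and 5613 to 13174 CPM (median 10145) at D1. MYL3, the slow essential light chain, had 0 to 0.369 CPM (median 0.151) at D21 and 1.49 to 294 CPM (median 68.6) at D1 (log2 fold change -8.997 ± 1.35, adjusted p = 0.000124). It was near 0 in every D21 library, while the D1 libraries themselves spread over a wide range. TPM2, beta-tropomyosin, had 262 to 504 CPM (median 381) at D21 and 2519 to 4911 CPM (median 3274) at D1 (log2 fold change -3.27 ± 0.23, adjusted p = 3.25e-07), and its groups were far apart. CSRP3, a LIM protein of the Z-disc, had 0.697 to 3.61 CPM (median 1.30) at D21 and 8.95 to 207 CPM (median 25.8) at D1 (log2 fold change -5.53 ± 0.90, adjusted p = 0.000217). MYL10 (-5.84 ± 1.12, adjusted p = 0.000795), the slow myosin heavy chain MYH7B (-5.45 ± 1.15), the slow troponin TNNI1 (-3.87 ± 0.54), the slow binding protein MYBPC1 (-3.57 ± 0.64) and MYOZ2 (-3.27 ± 0.31) fell as well, although groups overlapped for MYL10 and MYH7B. The 5 that rose did not share this direction. TNNC1, the troponin C of slow and cardiac muscle, had 1864 to 3365 CPM (median 2867) at D21 and 23.0 to 421 CPM (median 96.8) at D1 (log2 fold change 4.15 ± 0.56, adjusted p = 5.19e-05), and all D21 libraries lay above all D1 libraries. ANKRD1, a stretch-responsive titin partner in mammals (2.17 ± 0.64, adjusted p = 0.0121), MYH15 (2.66 ± 0.49), CASQ2 (0.91 ± 0.22) and ACTA2 (1.29 ± 0.30), the actin of vascular smooth muscle, were the others. On GRCg7b, MYL3 lies on chromosome 2 from 3449268 to 3483955, TNNC1 on chromosome 12 from 643058 to 648527 and TPM2 on chromosome Z from 9760165 to 9771212.

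**Figure D1:**
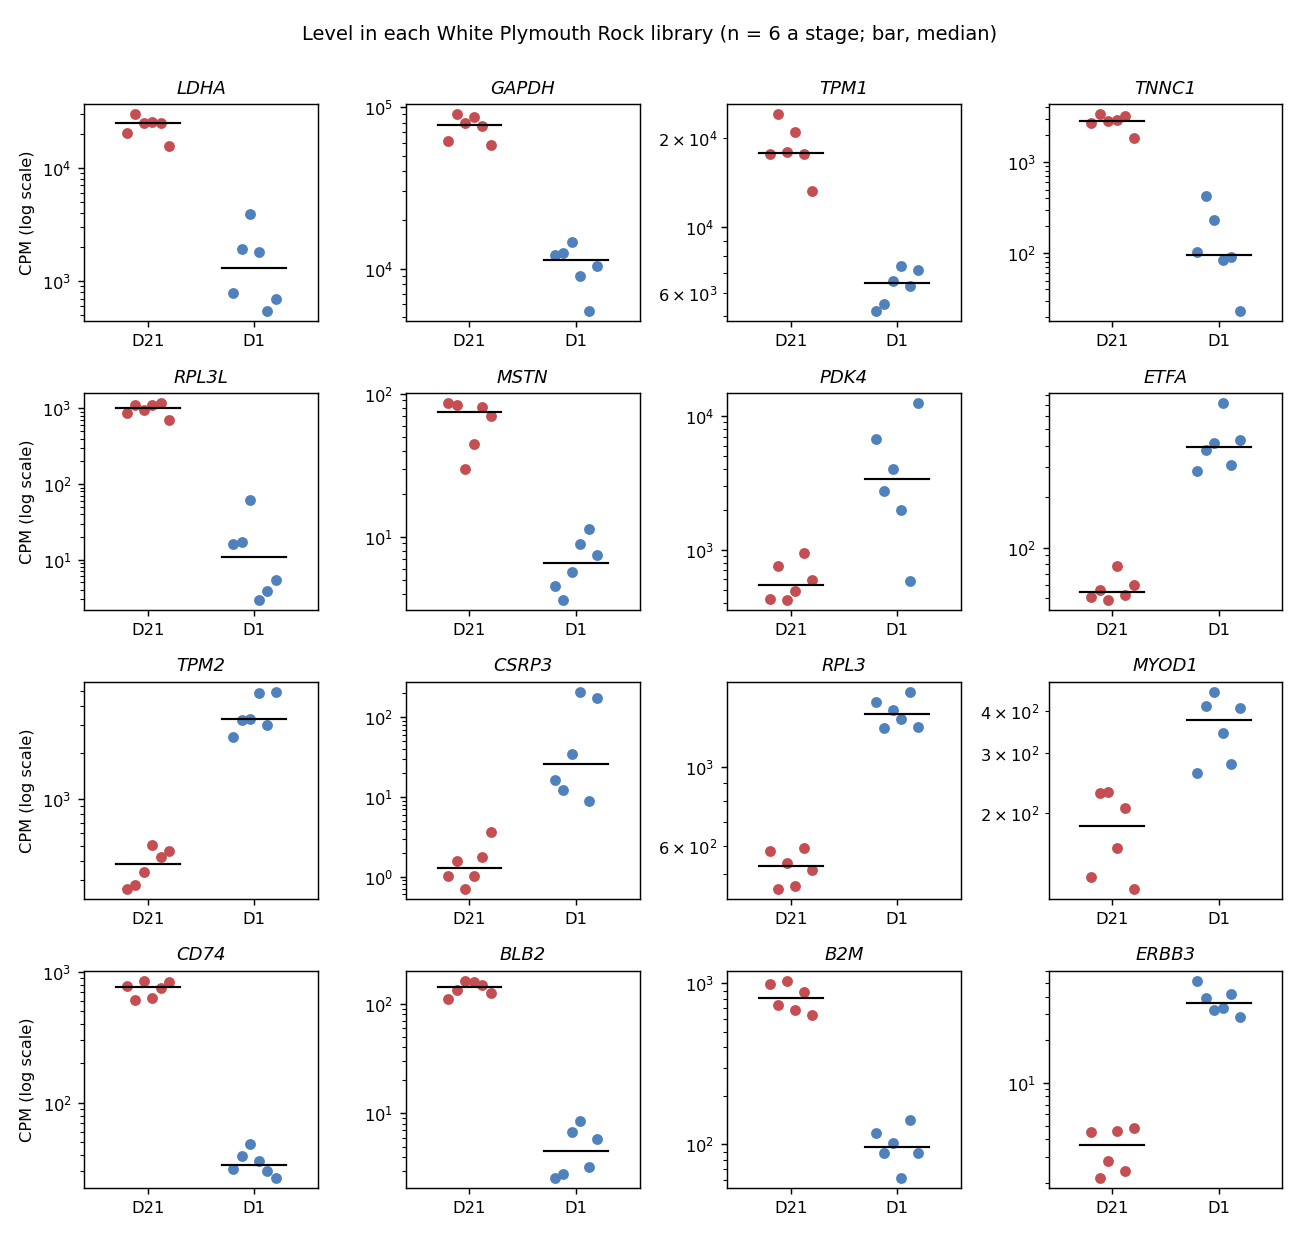
CPM on a log axis of 16 genes in each of the 6 D21 libraries (left, red) and 6 D1 libraries (right, blue), with a bar at the median. The 6 D21 libraries lie wholly above the 6 D1 libraries for LDHA, GAPDH, TPM1, TNNC1, RPL3L, MSTN, CD74, BLB2 and B2M, and wholly below them for ETFA, TPM2, CSRP3, RPL3, MYOD1 and ERBB3, while 1 D1 library of PDK4 lies within the D21 range.

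Genes of glycolysis rose. Of 38 genes of glycolysis and glycogen tested, 23 rose and 2 fell, with a median log2 fold change of 0.77 against -0.05 over all genes tested. Together the list made up 11.6% to 15.8% of all counts at D21 and 1.51% to 3.76% at D1. GAPDH, which oxidises glyceraldehyde 3-phosphate, had 58517 to 90031 CPM (median 77752) at D21 and 5443 to 14677 CPM (median 11292) at D1 (log2 fold change 2.82 ± 0.24, adjusted p = 1.23e-06), the largest rise in mean CPM of all genes tested. LDHA, the lactate dehydrogenase subunit of fast muscle, had 15624 to 29583 CPM (median 24647) at D21 and 542 to 3895 CPM (median 1293) at D1 (log2 fold change 3.86 ± 0.47, adjusted p = 2.22e-05), and the groups were far apart. Its heart-type partner LDHB had 53.9 to 80.7 CPM (median 69.9) at D21 and 99.3 to 337 CPM (median 171) at D1 (log2 fold change -1.49 ± 0.28, adjusted p = 0.000721). The LDHA count divided by the LDHB count in the same library, a ratio chosen after its values were seen, was 194 to 465 at D21 and 3.55 to 13.04 at D1, and it needs no scaling between libraries.

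Genes of several enzymes on and beside the path rose. PKLR, a pyruvate kinase gene on chromosome 10 that RefSeq also lists under the symbol PKM, so that the name does not settle which form was counted, had 16938 to 28405 CPM (median 22923) at D21 and 2074 to 8166 CPM (median 3908) at D1 (log2 fold change 2.41 ± 0.33, adjusted p = 5.64e-05). GPD1, which passes cytosolic reducing power to glycerol 3-phosphate, had 2514 to 4988 CPM (median 4156) at D21 and 108 to 711 CPM (median 264) at D1 (log2 fold change 3.67 ± 0.44, adjusted p = 2.27e-05). In both genes the groups did not overlap. PGM1, which links glycogen to glucose 6-phosphate (3.15 ± 0.34), FBP2, the muscle fructose bisphosphatase (3.29 ± 0.38), PFKM, the muscle phosphofructokinase (1.97 ± 0.33), TPI1 (2.43 ± 0.26), GPI (3.02 ± 0.38), PGAM1 (2.64 ± 0.24) and PHKG1, the catalytic subunit of phosphorylase kinase (2.39 ± 0.13), rose. SLC16A3, a lactate exporter, was the other gene that fell (-0.96 ± 0.35, adjusted p = 0.0366), and its call was lost with the replicate block (-0.83, adjusted p = 0.0751) and without any 1 of 8 of the libraries. In the creatine and adenylate buffer, of 11 tested, 6 rose and 2 fell, with a median log2 fold change of 0.33, and with library totals 3 rose. AMPD1, the AMP deaminase of muscle (2.44 ± 0.39, adjusted p = 0.000185), and AK1, the cytosolic adenylate kinase (1.79 ± 0.14, adjusted p = 5.74e-07), rose most; CKMT2, the sarcomeric mitochondrial creatine kinase, rose too (1.65 ± 0.32). GAMT, of creatine synthesis, fell slightly (-0.37 ± 0.14, adjusted p = 0.038). It was not called with median-of-ratios scaling (-0.35, adjusted p = 0.0521), without D21 library 6 (-0.30, adjusted p = 0.0985) or under several other alternatives.

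**Figure D2:**
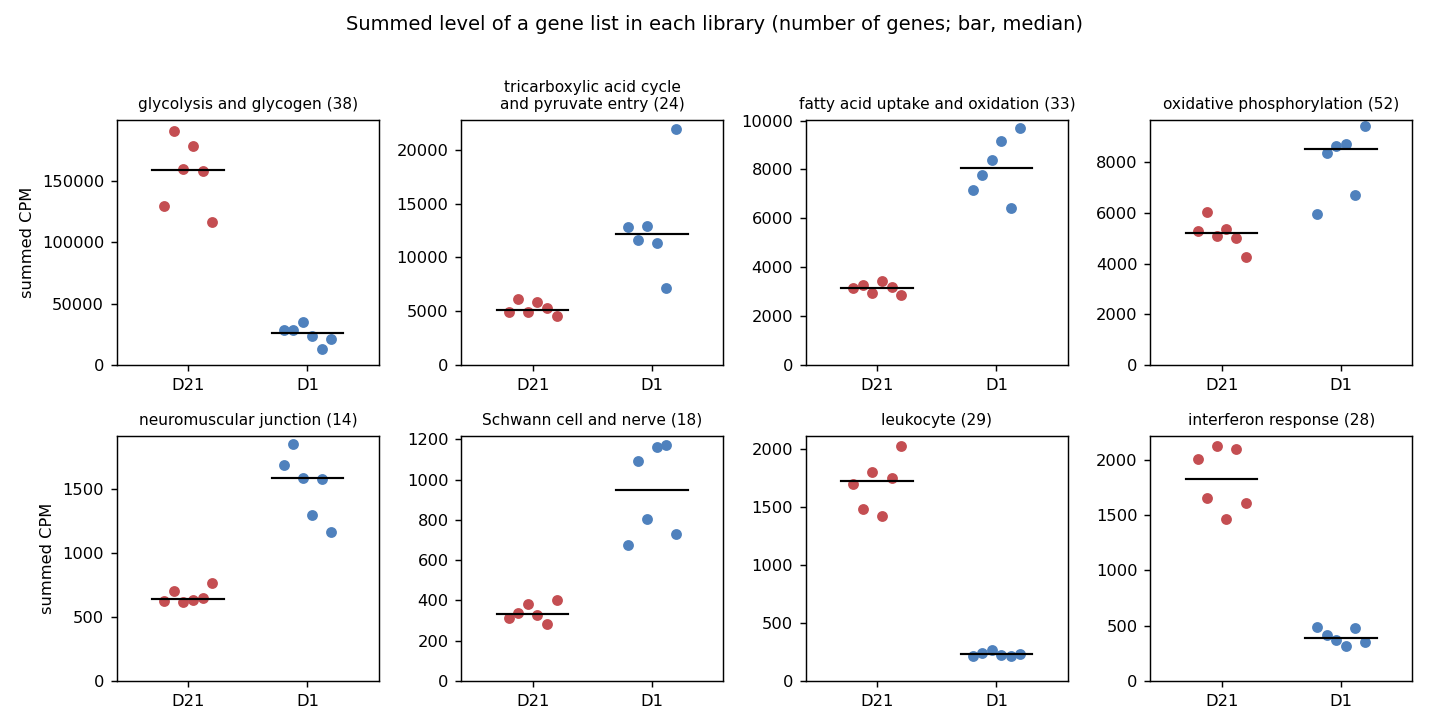
Summed CPM of 8 gene lists in each of the 6 D21 libraries (left, red) and 6 D1 libraries (right, blue), on axes that start at 0, with a bar at the median and the number of genes in the title. Glycolysis and glycogen, leukocyte and interferon sums are wholly higher at D21; the sums of the tricarboxylic acid cycle, fatty acid oxidation, the neuromuscular junction and Schwann cells are wholly lower, and those of oxidative phosphorylation overlap.

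Genes that burn fatty acids fell. Among genes of fatty acid uptake and oxidation, of 33 tested, 4 rose and 16 fell, with a median log2 fold change of -0.47, and they summed to 2842 to 3430.3 CPM at D21 and 6423 to 9692 CPM at D1. ETFA, which carries electrons from fatty acid oxidation to the respiratory chain, had 48.8 to 78.3 CPM (median 54.3) at D21 and 285 to 713 CPM (median 395) at D1 (log2 fold change -2.87 ± 0.22, adjusted p = 5.91e-07). ACAA2, the thiolase of the last step, had 71.0 to 79.8 CPM (median 75.8) at D21 and 231 to 552 CPM (median 434) at D1 (log2 fold change -2.45 ± 0.17, adjusted p = 2.88e-07). In both, every D21 library lay below every D1 library. The subunits of the trifunctional protein, HADHA (-2.19 ± 0.17) and HADHB (-2.41 ± 0.13), fell, and so did the fatty acid carriers CD36 (-2.30 ± 0.26) and FABP3 (-1.98 ± 0.23). The 4 that rose were FABP4, the carrier of fat and endothelial cells (2.63 ± 0.44, adjusted p = 0.000262), EHHADH, of oxidation in peroxisomes (1.62 ± 0.22, adjusted p = 6.13e-05), SLC27A6 (2.39 ± 0.34) and ACSL5 (2.21 ± 0.24).

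The tricarboxylic acid cycle and the respiratory chain moved down with them. Among genes of the cycle and of pyruvate entry, of 24 tested, 2 rose and 17 fell, with a median log2 fold change of -0.74. PDK4, a kinase that shuts pyruvate dehydrogenase during fasting, had 419 to 952 CPM (median 542) at D21 and 584 to 12492 CPM (median 3405) at D1 (log2 fold change -2.98 ± 0.57, adjusted p = 0.000778), and 1 D1 library lay within the D21 range. PDK2, a related kinase, fell without overlap (-1.82 ± 0.21, adjusted p = 1.7e-05), as did CS, citrate synthase (-1.58 ± 0.15). The opposing phosphatase PDP1 (1.06 ± 0.13, adjusted p = 2.8e-05) and the pyruvate carrier subunit MPC2 (0.66 ± 0.16, adjusted p = 0.00347) rose. Of 52 nuclear genes of oxidative phosphorylation tested, 32 fell and 0 rose, with a median of -0.46; with median-of-ratios or upper quartile scaling 1 rose. COX6A1, a subunit of cytochrome oxidase, fell furthest (-2.16 ± 0.18, adjusted p = 1.18e-06), then ATP5MC1, of the ring of ATP synthase (-1.34 ± 0.19, adjusted p = 6.92e-05). Of 13 genes encoded in mitochondrial DNA, 4 fell and 0 rose, while 26.5% of all genes tested fell. The 4 were ND4, ND4L, ND5 and ND6, with -1.53 ± 0.10 for ND6. These 13 genes held 4.21% to 5.87% of counts at D21 and 5.65% to 8.59% at D1.

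Regulators of fasting and fuel choice followed the same direction. Of 22 tested, 2 rose and 13 fell, with a median of -0.86; without D1 libraries 1 and 6, 4 rose and 11 fell with a median of -0.50. PPARGC1A, the coactivator that drives mitochondrial genes, had 6.13 to 11.3 CPM (median 9.68) at D21 and 31.2 to 116 CPM (median 46.2) at D1 (log2 fold change -2.59 ± 0.29, adjusted p = 1.38e-05), with no overlap. PPARA (-1.69 ± 0.18), ESRRG (-1.76 ± 0.30), ANGPTL4 (-1.82 ± 0.35) and KLF15 (-1.60 ± 0.34) fell too. IRS2, an adaptor of the insulin receptor, was called lower (-1.88 ± 0.66, adjusted p = 0.0296), but that value came from D1 library 6, with 468 CPM against at most 72.2 in the other D1 libraries. Without that library IRS2 was not called (-0.49, adjusted p = 0.139). PRKAG3, the AMP-activated kinase subunit of glycolytic muscle, rose with no overlap (2.85 ± 0.38, adjusted p = 5.19e-05). PPARG, of fat cells, was the other that rose (0.61 ± 0.24, adjusted p = 0.0439), and its call was lost with library totals (0.39, adjusted p = 0.22), without D1 library 6 (0.56, adjusted p = 0.0775) and under several other alternatives.

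Genes of sterol synthesis rose. Of 19 tested, 15 rose and 2 fell, with a median of 1.23. INSIG1, the sterol sensor that holds back the pathway, had 32.95 to 113 CPM (median 74.5) at D21 and 4.19 to 8.65 CPM (median 7.42) at D1 (log2 fold change 3.44 ± 0.29, adjusted p = 1.11e-06). FDPS (2.30 ± 0.14), CYP51A1 (2.10 ± 0.26) and SQLE, squalene epoxidase (2.59 ± 0.35, adjusted p = 5.69e-05), rose with no overlap between groups, and SQLE reached 28.4 CPM in D21 library 6 against at most 10.6 CPM in the other D21 libraries. The mevalonate kinases MVK (-0.59 ± 0.12, adjusted p = 0.00124) and PMVK (-0.50 ± 0.14, adjusted p = 0.00861) fell. Among genes of lipid synthesis and fat cells, of 17 tested, 5 rose and 3 fell, with a median log2 fold change of 0.41. With library totals 5 rose and 5 fell. The summed level of the list was lower at D21, with 1097 to 1451 CPM against 1938 to 3299 CPM at D1. ME1, malic enzyme, which supplies NADPH for lipid synthesis, had 86.8 to 183 CPM (median 158) at D21 and 5.35 to 8.63 CPM (median 6.93) at D1 (log2 fold change 4.39 ± 0.21, adjusted p = 2.67e-08). SCD, which desaturates fatty acids (2.88 ± 0.23), and SREBF1 (1.55 ± 0.25) rose. PNPLA2, the triglyceride lipase, had 245 to 371 CPM (median 279) at D21 and 755 to 2058 CPM (median 1528) at D1 (log2 fold change -2.40 ± 0.23, adjusted p = 2.8e-06), and AGPAT2, of triglyceride synthesis, fell alongside it (-2.34 ± 0.18, adjusted p = 5.91e-07). PLIN1, which coats the droplets of fat cells, was called (2.24 ± 0.75, adjusted p = 0.0233), but not without D21 library 1 (1.87, adjusted p = 0.0588) or without D1 libraries 1 and 6 (1.84, adjusted p = 0.0742).

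In the growth factor axis, of 32 genes tested, 2 rose, 13 fell and 17 were not called, with a median log2 fold change of -0.15. Without D1 libraries 1 and 6, 5 rose, and without D1 library 1 alone, 4. Myostatin was among those that rose, and the receptor gene ACVR2B and the antagonists FST and FSTL3 were among those that fell. MSTN, the secreted brake on muscle growth, had 29.9 to 86.0 CPM (median 75.0) at D21 and 3.61 to 11.4 CPM (median 6.56) at D1 (log2 fold change 3.24 ± 0.33, adjusted p = 5.44e-06). All D21 libraries lay above all D1 libraries. ACVR2B, its receptor, had 1.11 to 2.19 CPM (median 1.69) at D21 and 5.05 to 13.3 CPM (median 11.7) at D1 (log2 fold change -2.71 ± 0.25, adjusted p = 2.62e-06), again with no overlap. The antagonists FST, follistatin (-1.44 ± 0.30), and FSTL3 (-1.72 ± 0.26) fell. IGF1, which drives muscle growth, had 2.03 to 4.98 CPM (median 2.99) at D21 and 0 to 2.03 CPM (median 1.18) at D1 and was not called (1.64 ± 0.70, adjusted p = 0.0656). It was called without D1 libraries 1 and 6 (1.11, adjusted p = 0.0142), by DESeq2 (1.66, adjusted p = 0.0311) and in a fit of all 72 libraries (1.67, adjusted p = 0.00181). IGF2 was not called (0.21 ± 0.24, adjusted p = 0.492; -0.00185 with library totals). IGFBP7 rose (1.16 ± 0.14, adjusted p = 2.34e-05) and IGFBP2 fell (-1.89 ± 0.22, adjusted p = 1.76e-05); both encode binding proteins. On GRCg7b, MSTN lies on chromosome 7 from 305390 to 312076 and ACVR2B on chromosome 2 from 5716617 to 5842556.

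Myogenic regulators went both ways, as did all genes tested, of which 23.4% rose and 26.5% fell. Of 35 tested, 7 rose and 13 fell, with a median of -0.19. With library totals 4 rose and 19 fell, beside 1714 and 4362 of all 11452 genes tested. Without D21 library 2, 4 rose. MYOD1, the factor that commits cells to muscle, had 119 to 231 CPM (median 183) at D21 and 262 to 455 CPM (median 376) at D1 (log2 fold change -1.01 ± 0.20, adjusted p = 0.000982). MYF5, its relative, fell less (-0.73 ± 0.14, adjusted p = 0.000722), and in both genes the groups did not overlap. PAX7, the marker of satellite cells, had 25.1 to 40.2 CPM (median 29.3) at D21 and 20.9 to 50.6 CPM (median 36.1) at D1 and was not called (-0.18 ± 0.19, adjusted p = 0.444); without D1 libraries 1 and 6 it was called lower (-0.40, adjusted p = 0.0325). MYOG, of differentiating myocytes, was called higher (1.29 ± 0.50, adjusted p = 0.045), but its groups overlapped, D1 library 3 held 27.8 CPM, and the call was lost without any 1 of 11 of the 12 libraries. EYA1, a cofactor of fast fibre genes in the mouse, fell, with 12.3 to 28.1 CPM (median 18.8) at D21 and 116 to 233 CPM (median 206) at D1 (log2 fold change -3.30 ± 0.22, adjusted p = 2.46e-07). LBX1, of migrating limb precursors, fell as well (-1.85 ± 0.12, adjusted p = 2.36e-07), and ITGA7, the laminin receptor of fibres, rose (1.78 ± 0.28, adjusted p = 0.000192).

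Genes of the nerve and muscle contact and of Schwann cells fell. At the neuromuscular junction, of 14 genes tested 11 fell and 0 rose, with a median of -1.11. COLQ, which anchors acetylcholinesterase, had 2.17 to 8.25 CPM (median 3.56) at D21 and 4.70 to 99.99 CPM (median 70.2) at D1 (log2 fold change -3.79 ± 0.58, adjusted p = 0.000143), and the groups overlapped. RAPSN, which clusters acetylcholine receptors, fell without overlap (-1.85 ± 0.12); MUSK (-1.11 ± 0.21) and the fetal receptor subunit CHRNG (-0.94 ± 0.33) fell too. Among markers of Schwann cells and nerve, of 16 tested, 1 rose and 10 fell, with a median log2 fold change of -1.34, and they summed to 285 to 402 CPM at D21 and 674 to 1174 CPM at D1. ERBB3, the neuregulin receptor of Schwann cells, had 2.15 to 4.85 CPM (median 3.66) at D21 and 28.6 to 51.3 CPM (median 36.2) at D1 (log2 fold change -3.41 ± 0.24, adjusted p = 3.25e-07). FOXD3, of the neural crest, fell too (-3.41 ± 0.29, adjusted p = 1.41e-06). NGFR was the exception (0.83 ± 0.29, adjusted p = 0.0266), and it was not called without D1 libraries 1 and 6 (0.57, adjusted p = 0.0846) or with library totals (0.62, adjusted p = 0.0981). The part of nerve content in the fall of junction genes was not tested.

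Genes that couple excitation to contraction went both ways, while of all genes tested 23.4% rose and 26.5% fell. Of 23 tested, 6 rose and 9 fell, with a median of -0.32. Without D1 libraries 1 and 6, 6 rose and 14 fell. With library totals 3 rose and 13 fell, beside 1714 and 4362 of all 11452 genes tested. PLN, phospholamban, which restrains the calcium pump of slow and cardiac muscle, had 2.80 to 3.49 CPM (median 3.02) at D21 and 35.2 to 197 CPM (median 58.2) at D1 (log2 fold change -4.96 ± 0.49, adjusted p = 4.52e-06). All D21 libraries lay far below all D1 libraries. KCNJ2, a potassium channel that sets the resting potential (-2.21 ± 0.21, adjusted p = 3.57e-06), and CACNA1S, the voltage sensor (-1.34 ± 0.21, adjusted p = 0.000202), fell. RYR3, a calcium release channel of bird muscle, had 702 to 1292 CPM (median 1002) at D21 and 233 to 458 CPM (median 431) at D1 (log2 fold change 1.34 ± 0.19, adjusted p = 6.5e-05), with no overlap.

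Most ribosomal protein genes fell a little while a muscle paralogue rose strongly. Of 63 cytosolic ribosomal protein genes tested, 38 fell and 4 rose, with a median of -0.35; with library totals 50 fell and 1 rose. RPL3, near the centre of peptide bond formation, fell furthest among them, with 454 to 593 CPM (median 527) at D21 and 1289 to 1619 CPM (median 1404) at D1 (log2 fold change -1.44 ± 0.11, adjusted p = 6.18e-07). RPL5 fell too (-0.85 ± 0.11, adjusted p = 3.13e-05), while RPLP0 (0.59 ± 0.14, adjusted p = 0.00336) and RPS28 (0.51 ± 0.18, adjusted p = 0.0288) rose; RPS28 was not called with library totals (0.27, adjusted p = 0.23) or without D1 libraries 1 and 6 (0.44, adjusted p = 0.0858). RPL3L, which takes the place of RPL3 in the ribosomes of adult heart and skeletal muscle of mice, had 705 to 1173 CPM (median 1024) at D21 and 2.91 to 61.8 CPM (median 10.8) at D1 (log2 fold change 5.78 ± 0.74, adjusted p = 3.38e-05). The groups did not overlap, and the highest D1 value came from library 3. The RPL3L count over the RPL3 count in the same library, chosen after its values were seen, was 1.37 to 2.44 at D21 and 0.00214 to 0.0427 at D1. The ratio mixes transcript lengths, so only its difference between stages can be read. On GRCg7b, RPL3L lies on chromosome 14 from 6135330 to 6142706 and RPL3 on chromosome 1 from 50730828 to 50736632.

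Of all genes tested, 26.5% fell and 23.4% rose. With library totals, 4362 of the 11452 fell and 1714 rose, with a median of -0.27. Of 45 cell cycle genes tested, 14 fell and 0 rose, with a median of -0.61. D1 library 6 and D1 library 1 changed that count: 23 fell without library 6, and 36 fell without both, with a median of -1.04. MCM3, of the replication helicase, had 4.30 to 9.59 CPM (median 5.68) at D21 and 3.16 to 32.0 CPM (median 28.3) at D1 (log2 fold change -1.76 ± 0.47, adjusted p = 0.00672), and its groups overlapped. TYMS, which makes thymidylate (-1.63 ± 0.35, adjusted p = 0.00162), and PCNA (-0.71 ± 0.12) fell. Among genes of proteolysis and autophagy, of 29 tested, 10 rose and 5 fell, with a median log2 fold change of 0.13, and with library totals 6 rose and 7 fell with a median of -0.10. MAP1LC3B, which marks autophagosomes (1.22 ± 0.13, adjusted p = 9.07e-06), and the protease CAPN2 (1.26 ± 0.17, adjusted p = 5.33e-05) rose; CAPN3, the muscle calpain (-0.74 ± 0.17, adjusted p = 0.00308), and TFEB, a regulator of lysosomes (-0.76 ± 0.14, adjusted p = 0.000473), fell. Among chaperones, of 32 tested, 5 rose and 5 fell, with a median log2 fold change of -0.06; with library totals 2 rose and 13 fell, 1 rose when D1 library 2 was left out, and 8 fell when D1 library 3 was left out. HSPB7, a small heat shock protein of heart and muscle (-3.52 ± 0.68, adjusted p = 0.000785), and DNAJA4 (-1.24 ± 0.25, adjusted p = 0.00115) fell. HSP90AA1 (1.24 ± 0.42, adjusted p = 0.0257) and HSPB9 (2.31 ± 0.80, adjusted p = 0.0271) rose, HSPB9 with 763 CPM in D21 library 6 and no call without that library (1.24, adjusted p = 0.117). HSP90AA1 was not called without D1 libraries 1 and 6 (1.03, adjusted p = 0.087) or with library totals (1.01, adjusted p = 0.0572).

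Genes of connective tissue moved in both directions, while of all genes tested 23.4% rose and 26.5% fell. Of 44 genes of fibroblast matrix tested, 19 rose and 8 fell, with a median of 0.34. With library totals 14 rose and 14 fell, beside 1714 and 4362 of all 11452 genes tested. COL1A1, of fibrillar collagen, had 1318 to 3389 CPM (median 1927) at D21 and 2862 to 11268 CPM (median 3716) at D1 (log2 fold change -1.35 ± 0.39, adjusted p = 0.0103), and groups overlapped. COL11A1, of early collagen fibrils, had 3.40 to 8.07 CPM (median 4.13) at D21 and 19.6 to 280.2 CPM (median 63.4) at D1 (log2 fold change -4.54 ± 0.60, adjusted p = 4.31e-05), with no overlap. FMOD, fibromodulin, fell as well (-3.35 ± 0.61, adjusted p = 0.000545). TNC, tenascin C, had 54.2 to 279 CPM (median 63.5) at D21 and 3.04 to 15.5 CPM (median 7.07) at D1 (log2 fold change 3.56 ± 0.53, adjusted p = 0.000119), and its highest value was in D21 library 6, against at most 92.3 CPM in the other D21 libraries. COL8A1 (3.34 ± 0.34, adjusted p = 5.09e-06), COL6A2 (1.46 ± 0.38), COL3A1 (0.77 ± 0.27) and the fibroblast protease FAP (1.66 ± 0.30) rose. In the basement membrane, of 17 tested, 4 rose and 4 fell, near the shares of all genes tested. The median log2 fold change was 0.12, which turned to -0.10 with library totals, beside -0.27 over all genes tested. The common collagen IV chain COL4A1 (1.01 ± 0.14, adjusted p = 6.08e-05) and COL18A1 (1.58 ± 0.32, adjusted p = 0.00121) rose, while COL4A5, an alternative chain, had 126 to 219.6 CPM (median 169) at D21 and 450.0 to 1203 CPM (median 731) at D1 (log2 fold change -2.18 ± 0.22, adjusted p = 4.86e-06). LAMB2, the laminin chain of the synapse, fell (-0.76 ± 0.26, adjusted p = 0.0255), but was not called without D1 libraries 1 and 6 (-0.50, adjusted p = 0.102). It was also not called without D21 library 2, D1 library 1 or D1 library 5 alone.

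Vessel markers rose. Of 22 endothelial markers, 14 rose and 0 fell, with a median of 0.56; with library totals 7 rose. MMRN2, of the endothelial surface (1.02 ± 0.14, adjusted p = 7.48e-05), and LYVE1, of lymph vessels (1.75 ± 0.36, adjusted p = 0.00119), led them, LYVE1 with overlapping groups. Of 11 markers of pericytes and smooth muscle, 8 rose and 0 fell, with a median of 0.94. PDGFRB, the pericyte receptor, had 109 to 174 CPM (median 134) at D21 and 30.0 to 66.1 CPM (median 53.9) at D1 (log2 fold change 1.45 ± 0.18, adjusted p = 2.96e-05), with no overlap, and ACTA2 rose (1.29 ± 0.30, adjusted p = 0.0029). Summed levels of the endothelial list were 2058 to 2725 CPM at D21 and 1182 to 1976 CPM at D1.

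Most markers of leukocytes rose. Of 29 leukocyte markers tested, 26 rose and 1 fell, with a median log2 fold change of 2.43, against -0.05 over all genes tested. They summed to 1425 to 2026 CPM at D21 and 216 to 265 CPM at D1. None of the 29 was at 0 in all 12 libraries. CD74, the invariant chain of MHC class II, had 605 to 850.4 CPM (median 764) at D21 and 26.7 to 48.7 CPM (median 33.8) at D1 (log2 fold change 4.39 ± 0.17, adjusted p = 7.43e-09). BLB1, a class II beta chain, had 62.9 to 96.96 CPM (median 88.7) at D21 and 1.62 to 3.61 CPM (median 2.71) at D1 (log2 fold change 5.01 ± 0.21, adjusted p = 7.43e-09). BLB2, its close relative, had 109 to 160.2 CPM (median 141) at D21 and 2.58 to 8.56 CPM (median 4.57) at D1 (log2 fold change 4.81 ± 0.31, adjusted p = 1.87e-07). For these 3 genes every D21 library lay above every D1 library, which the rule that picked them required. BLB1 and BLB2 are so alike that counts may be shared between them. The pan-leukocyte gene PTPRC had 29.3 to 41.4 CPM (median 37.7) at D21 and 3.81 to 15.05 CPM (median 5.29) at D1 (log2 fold change 2.43 ± 0.30, adjusted p = 2.85e-05). The T cell genes CD3E (3.53 ± 0.42) and CD8A (3.86 ± 0.77) and the macrophage complement gene C1QA (2.37 ± 0.26) rose. Antibody genes were near 0 at D1: JCHAIN, which joins secreted antibodies, had 1.90 to 27.7 CPM (median 18.9) at D21 and 0 to 0.265 CPM (median 0.0338) at D1 (log2 fold change 7.80 ± 0.95, adjusted p = 2.33e-05), and IGLL1, named in the table as an immunoglobulin light chain gene, had 16.6 to 135 CPM (median 105) at D21 and 0 to 0.625 CPM (median 0.0885) at D1 (log2 fold change 8.43 ± 0.90, adjusted p = 8e-06). CD79B, of the B cell receptor, was the 1 marker that fell (-2.08 ± 0.67, adjusted p = 0.0193); its highest value was 13.2 CPM in a D1 library, the groups overlapped, and without D1 libraries 1 and 6 the list had 27 that rose and 0 that fell. Outside the list, AvBD1, a defensin of granulocytes (-7.49 ± 1.03), and LECT2, an attractant of neutrophils (-6.79 ± 0.76), fell.

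Interferon response genes rose with them. Of 28 tested, 26 rose and 0 fell, with a median of 2.16, and they summed to 1459.6 to 2124 CPM at D21 and 314 to 492 CPM at D1. IFIT5, an RNA-binding antiviral protein, had 5.33 to 40.7 CPM (median 16.3) at D21 and 0.529 to 0.943 CPM (median 0.698) at D1 (log2 fold change 4.73 ± 0.42, adjusted p = 1.6e-06). B2M, the light chain of MHC class I, had 633 to 1032 CPM (median 807) at D21 and 61.9 to 142 CPM (median 95.8) at D1 (log2 fold change 3.04 ± 0.21, adjusted p = 2.61e-07). Neither overlapped. MX1 (7.22 ± 0.85), CMPK2 (4.20 ± 0.42) and EPSTI1 (3.64 ± 0.65) rose, with every D1 library below 1 CPM. The leukocyte list moved with the interferon list, and its part in that rise was not tested. By chromosome, a grouping chosen after the values were seen, 16 of 42 tested genes of chromosome 16, which carries the chicken MHC, rose, all by at least 2-fold (38.1% against 10.1% of all genes tested), and 3 fell. They included the class I genes BF1 (2.94 ± 0.23) and BF2 (2.93 ± 0.20), the peptide transporters TAP1 (2.45 ± 0.17) and TAP2 (1.69 ± 0.28), DMA (3.03 ± 0.24) and DMB2 (4.44 ± 0.35, adjusted p = 7.02e-07), which load class II molecules. On GRCg7b, BLB1 spans 2185532 to 2187356, BLB2 2192787 to 2194303 and BF2 2226703 to 2229465 on chromosome 16.

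**Figure D3:**
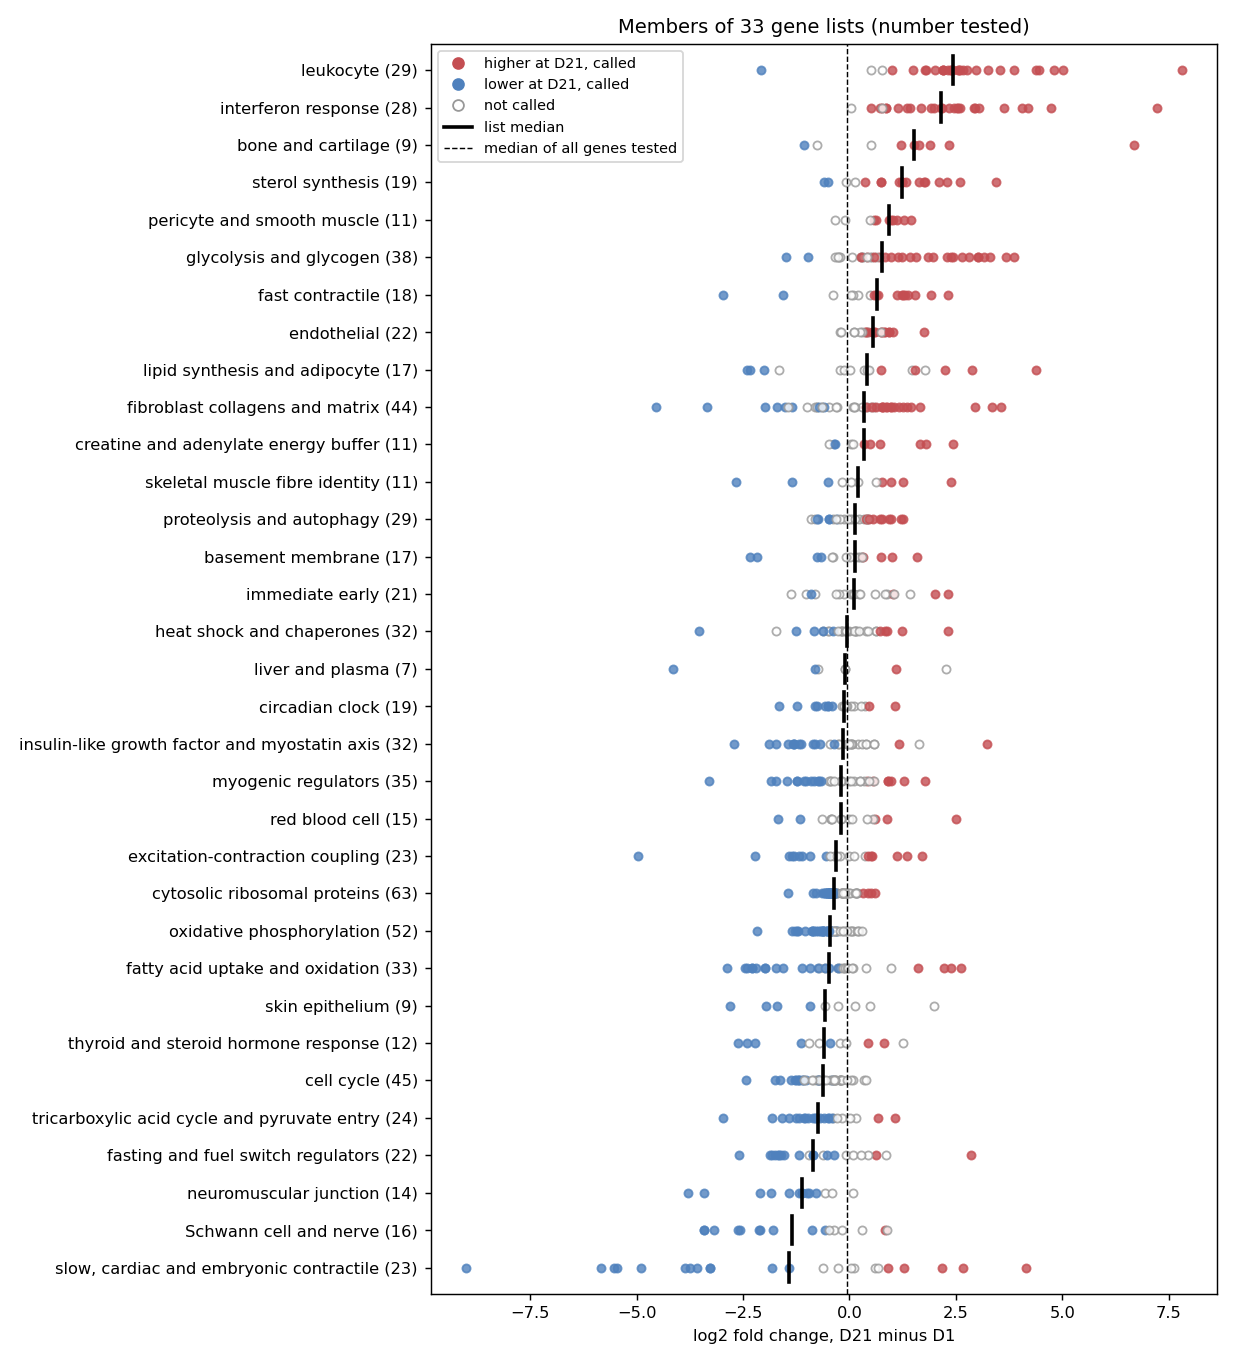
Log2 fold change, D21 minus D1, of every tested member of the 33 gene lists (1 dot a gene; red, called higher at D21; blue, called lower; open, not called), with each list's median as a black bar and the median of all 11452 genes as a dashed line. Leukocyte and interferon lists have the highest medians (2.43 and 2.16), and the slow, cardiac and embryonic contractile list has the lowest (-1.42).

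Smaller groups were mixed, beside 23.4% of all genes tested that rose and 26.5% that fell. Among clock genes, of 19 tested, 2 rose and 8 fell, with a median log2 fold change of -0.14. The activator NPAS2 (1.06 ± 0.19, adjusted p = 0.000488), and CIPC (0.47 ± 0.12, adjusted p = 0.00459) rose, though CIPC was not called with library totals (0.23, adjusted p = 0.148), and the repressors NR1D1 (-1.65 ± 0.44, adjusted p = 0.00677) and NFIL3 (-1.23 ± 0.34, adjusted p = 0.00919) fell. The hour of sampling was not given. Among immediate early genes, of 21 tested, 3 rose and 1 fell, with a median log2 fold change of 0.11. With library totals that median turned to -0.05, beside -0.27 over all genes tested. D21 library 6 stood out here, with a sum of 8559 CPM against at most 2263 in the other D21 libraries, and without it 1 gene rose and 5 fell. Without D1 libraries 1 and 6, 4 rose and 0 fell, with a median of 1.19. ATF3 (2.32 ± 0.80, adjusted p = 0.0277) and EGR3 (2.02 ± 0.76, adjusted p = 0.0396) were among those that rose. Without D21 library 6 neither was called (0.82, adjusted p = 0.178, and 0.29, adjusted p = 0.437). Both calls were also lost with the replicate block and without certain single D1 libraries, such as D1 library 3 (2.18, adjusted p = 0.0544, and 1.95, adjusted p = 0.0695). DUSP1, a phosphatase of stress kinases, fell (-0.91 ± 0.34, adjusted p = 0.0404), but the call was lost without D1 libraries 1 and 6 (-0.87, adjusted p = 0.0783). It was also lost without any of several single libraries of either stage, such as D21 library 3 (-0.80, adjusted p = 0.0845).

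Among genes of thyroid and steroid response, of 12 tested, 2 rose and 5 fell, with a median log2 fold change of -0.59. FKBP5, a target of glucocorticoids, fell (-2.42 ± 0.52, adjusted p = 0.00172), as did DIO3, which inactivates thyroid hormone (-2.61 ± 0.49); SLC16A10, a transporter of thyroid hormone (0.81 ± 0.16, adjusted p = 0.00108), and NR3C2, the mineralocorticoid receptor (0.43 ± 0.14, adjusted p = 0.0171), rose. Groups overlapped for NR3C2, which was not called with library totals (0.22, adjusted p = 0.252). Among red cell markers, of 15 tested, 3 rose and 2 fell, with a median log2 fold change of -0.19. CA2 (2.51 ± 0.38, adjusted p = 0.000126) and LMO2 (0.89 ± 0.15, adjusted p = 0.00035) rose, TFRC (-1.67 ± 0.22, adjusted p = 3.74e-05) and GYPC (-1.17 ± 0.21, adjusted p = 0.000504) fell, and the 4 globin genes tested were not called. Among skin markers, of 9 tested, 0 rose and 4 fell, with a median log2 fold change of -0.58, with KRT7 at -1.96 ± 0.33; the list summed to at most 66.0 CPM. Among liver and plasma genes, of 7 tested, 1 rose and 2 fell, with a median log2 fold change of -0.10. APOA1 (-0.82 ± 0.16, adjusted p = 0.000857) and AHSG (-4.14 ± 0.47) fell and TF rose (1.10 ± 0.21, adjusted p = 0.000758), and APOA1 was not called in a fit of all 72 libraries (-0.79, adjusted p = 0.0919) or of the 24 White Plymouth Rock libraries (-0.79, adjusted p = 0.0895). ALB stayed below 1 CPM in every library. Among bone and cartilage genes, of 9 tested, 6 rose and 1 fell, with a median log2 fold change of 1.52. SPP1, osteopontin, which macrophages also make, had 2.36 to 32.0 CPM (median 11.9) at D21 and 0 to 0.282 CPM (median 0.178) at D1 (log2 fold change 6.68 ± 0.97, adjusted p = 9.69e-05), and ALPL rose (1.63 ± 0.22, adjusted p = 6.04e-05).

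Other genes among those of largest fold change lay outside the lists. SLC7A5, a transporter of large neutral amino acids, had 233 to 527 CPM (median 343) at D21 and 8.57 to 21.4 CPM (median 13.4) at D1 (log2 fold change 4.71 ± 0.28, adjusted p = 9.11e-08). UCHL1, a ubiquitin hydrolase, rose (4.98 ± 0.35, adjusted p = 3.25e-07), as did the microRNA gene gga-mir-12268 (6.42 ± 0.44, adjusted p = 3.07e-07), of which a library of this kind need not capture the mature microRNA. CBS, the first enzyme of transsulfuration, had 2.15 to 6.88 CPM (median 4.09) at D21 and 95.4 to 401 CPM (median 235) at D1 (log2 fold change -5.87 ± 0.41, adjusted p = 3.25e-07). STK17A, a kinase, had 2.08 to 6.16 CPM (median 3.55) at D21 and 96.0 to 275 CPM (median 212) at D1 (log2 fold change -5.75 ± 0.37, adjusted p = 1.87e-07). Both fell to a few CPM in every D21 library. TRIM71, a target of let-7 that keeps embryonic cells immature, had 0.446 to 1.45 CPM (median 0.979) at D21 and 8.67 to 92.0 CPM (median 24.9) at D1 (log2 fold change -5.13 ± 0.62, adjusted p = 2.2e-05). TRIM36 (-5.27 ± 0.40, adjusted p = 5.09e-07), the kinase MAP3K8 (-5.06 ± 0.41, adjusted p = 8.25e-07), TECRL (-5.04 ± 0.91, adjusted p = 0.000491) and C8orf22 (-7.69 ± 0.90, adjusted p = 1.72e-05) fell likewise. AvBD1, a defensin of chicken granulocytes, had 0 to 0.221 CPM (median 0.0354) at D21 and 0.496 to 30.8 CPM (median 10.47) at D1 (log2 fold change -7.49 ± 1.03, adjusted p = 6.08e-05). LECT2, a secreted attractant of neutrophils, had 0.159 to 0.709 CPM (median 0.391) at D21 and 3.01 to 90.9 CPM (median 44.8) at D1 (log2 fold change -6.79 ± 0.76, adjusted p = 1.26e-05). By the rule that chose the genes of this paragraph, the groups did not overlap for any of them. On GRCg7b, CBS lies on chromosome 1 from 109783082 to 109810561 and SLC7A5 on chromosome 11 from 17602477 to 17634911.

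**Figure D4:**
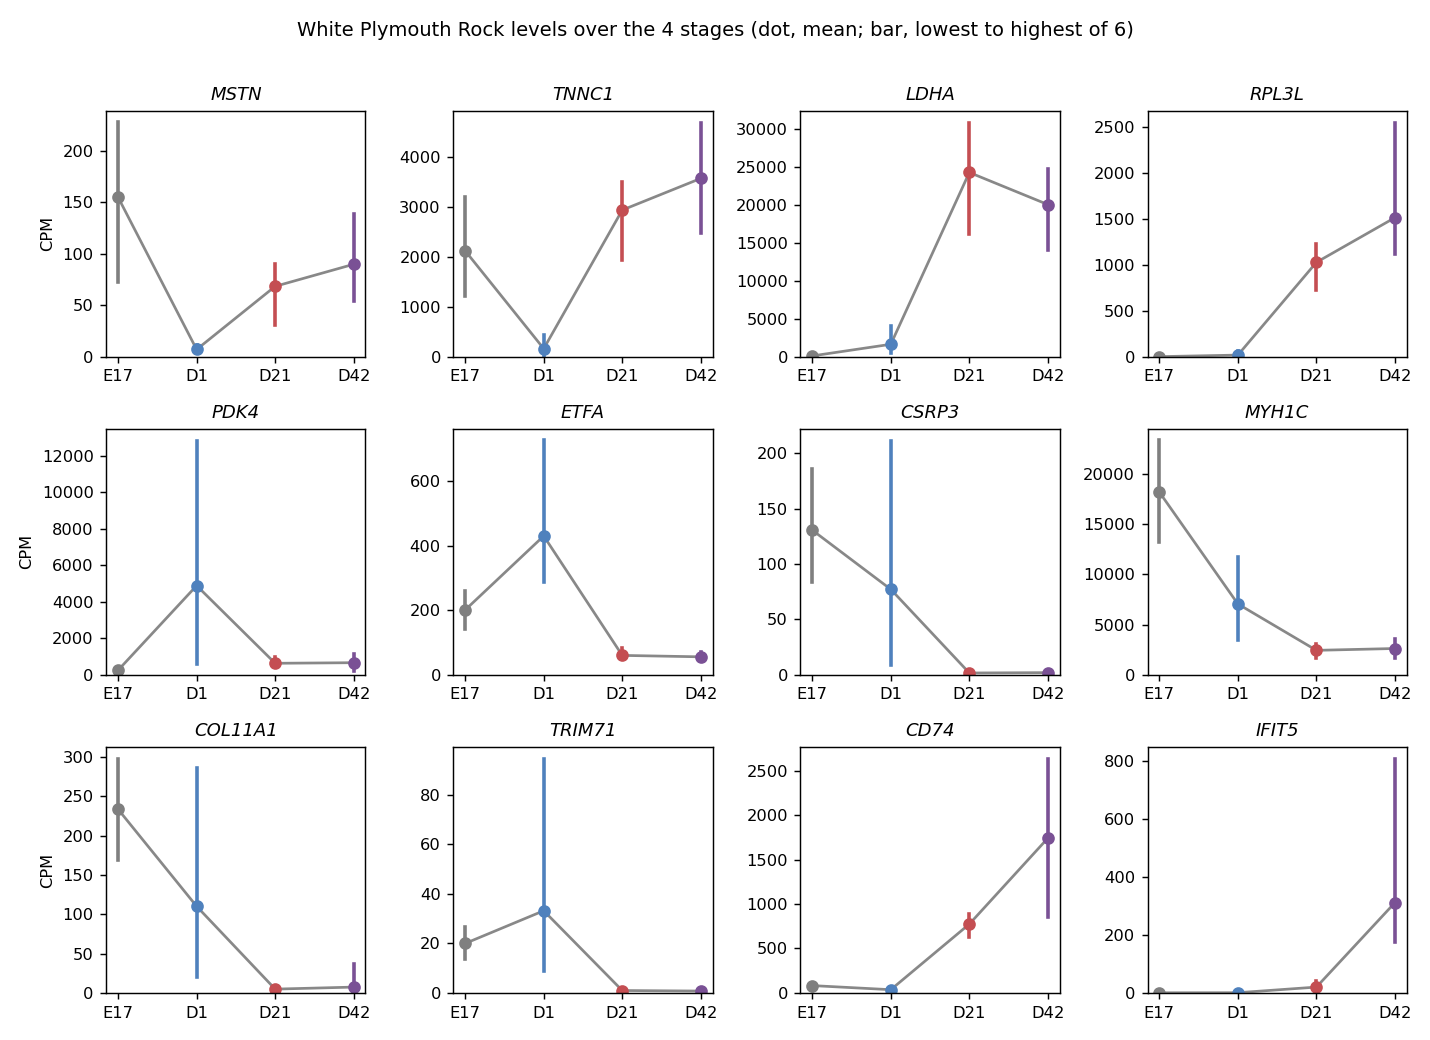
Mean CPM (dot) and the range over 6 libraries (bar) of 12 genes in White Plymouth Rock breast muscle at E17, D1, D21 and D42, each on an axis from 0. MSTN and TNNC1 have their lowest mean at D1, PDK4 and ETFA their highest, and LDHA, RPL3L, CD74 and IFIT5 are higher at D21 and D42 than at D1.

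Levels of the named genes at E17 and D42, described here without a test (mean ± SD, n = 6 a stage, scaled over the 24 White Plymouth Rock libraries), place the step within growth. The named genes were partly chosen for groups that do not overlap between D21 and D1, so their shares are set beside those of all called genes and nothing is read from them. Of 140 named genes called, the libraries at D1 lay above those at both E17 and D21 for 19 (13.6%, against 6.88% of all 5712 called genes) and below both for 10 (7.14%, against 6.07% of all 5712 called genes). The order E17, D1, D21 ran from low to high without overlap for 12 (8.57%, against 4.43% of all 5712 called genes) and from high to low for 3 (2.14%, against 2.42% of all 5712 called genes). MSTN had 155 ± 67.8 CPM at E17, 7.09 ± 2.95 at D1, 68.5 ± 24.2 at D21 and 89.9 ± 34.6 at D42, so its low point was D1. TNNC1, with 2124 ± 797 CPM at E17, 163 ± 149 at D1, 2941 ± 555 at D21 and 3575 ± 810.1 at D42, also had its low point at D1, but its later means passed that at E17. ETFA peaked at D1, with 201 ± 37.7 CPM at E17, 431 ± 158 at D1, 60.3 ± 11.2 at D21 and 55.8 ± 7.74 at D42. LDHA climbed until D21, with 114 ± 36.9 CPM at E17, 1647 ± 1311 at D1, 24289 ± 5059.8 at D21 and 20057 ± 4426 at D42. MYH1C had 18196 ± 4145 CPM at E17, 7059 ± 2895 at D1, 2439.8 ± 479 at D21 and 2623 ± 868 at D42. RPL3L went on to its highest mean at the last stage, with 1.53 ± 0.543 CPM at E17, 18.4 ± 23.2 at D1, 1027 ± 189 at D21 and 1512 ± 536 at D42. IFIT5 was highest at D42, with 0.477 ± 0.262 CPM at E17, 0.735 ± 0.167 at D1, 20.1 ± 12.5 at D21 and 312 ± 249.7 at D42.

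Whether the step itself was particular to White Plymouth Rock was tested against the same step in Cornish and in the crossbred, in a fit of 36 libraries and 11835 genes. Across genes, which are not independent replicates, log2 fold changes of White Plymouth Rock and Cornish had a Pearson r of 0.870, and those of White Plymouth Rock and the crossbred 0.885. The step differed from that of Cornish in 7 genes (0.0591% of those tested; 1117 at an unadjusted p under 0.05), all with an adjusted p of 0.0494. It differed from that of the crossbred in 0 genes by edgeR (0%; 482 at an unadjusted p under 0.05, and 1 gene by DESeq2). A gene that was not called is not shown to have the same step in both breeds. The log2 fold change of MYL3 was -8.997 in White Plymouth Rock, -12.51 in Cornish and -6.82 in the crossbred, that of RPL3L was 5.78 in White Plymouth Rock, 6.67 in Cornish and 7.27 in the crossbred, that of LDHA was 3.86 in White Plymouth Rock, 4.08 in Cornish and 4.57 in the crossbred and that of MSTN was 3.24 in White Plymouth Rock, 2.61 in Cornish and 2.86 in the crossbred. None of these 4 was called as different between breeds. The White Plymouth Rock values come from the fit of 12 libraries and the others from that of 36. MYL3 was near 0 at D21 in White Plymouth Rock, so the size of its fold there is uncertain.

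CTSS, a protease of antigen-presenting cells, rose in both breeds, with 65.1 ± 17.3 CPM at D21 and 10.95 ± 1.92 at D1 in White Plymouth Rock, and 72.7 ± 16.3 at D21 and 3.94 ± 1.13 at D1 in Cornish (SD, n = 6 each; difference of the steps -1.63 ± 0.34). NMRK2, a muscle kinase of NAD synthesis, rose by less in White Plymouth Rock, with 233 ± 44.2 CPM at D21 and 78.1 ± 38.5 at D1 in White Plymouth Rock, and 360.3 ± 87.9 at D21 and 38.5 ± 9.32 at D1 in Cornish (SD, n = 6 each; difference of the steps -1.65 ± 0.33). TMEM164 followed it, with 15.8 ± 3.36 CPM at D21 and 4.97 ± 2.10 at D1 in White Plymouth Rock, and 38.7 ± 12.3 at D21 and 3.67 ± 1.40 at D1 in Cornish (SD, n = 6 each; difference of the steps -1.73 ± 0.36). PHEX, a peptidase known from bone, fell further in White Plymouth Rock, with 0.926 ± 0.385 CPM at D21 and 16.2 ± 5.83 at D1 in White Plymouth Rock, and 2.86 ± 1.13 at D21 and 9.57 ± 3.65 at D1 in Cornish (SD, n = 6 each; difference of the steps -2.38 ± 0.49). The naming rule did not pick the other 3 genes, which were chosen after their values were seen. The clock repressor NR1D2 had 65.0 ± 17.0 CPM at D21 and 110.0 ± 39.5 at D1 in White Plymouth Rock, and 132 ± 25.2 at D21 and 76.0 ± 14.1 at D1 in Cornish (SD, n = 6 each; difference of the steps -1.56 ± 0.29), so that its mean was lower at D21 than at D1 in White Plymouth Rock and higher in Cornish. NR1D1, a related clock repressor, had steps of -1.65 in White Plymouth Rock and 1.46 in Cornish. Its difference was not called (-3.11 ± 0.67, adjusted p = 0.0592). The hour of sampling was not given, and its part in the steps of these clock genes was not tested. KIAA1217 had a difference of -1.06 ± 0.21, and GDAP1, a mitochondrial outer membrane protein, one of 2.99 ± 0.61. All 7 adjusted p-values lay just under the threshold. Of White Plymouth Rock libraries, leaving out D21 library 1, 2, 3 or 6 or D1 library 2 or 3 gave 0 genes called. Leaving out D1 library 4 gave 21, and DESeq2 called 68.

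**Figure D5:**
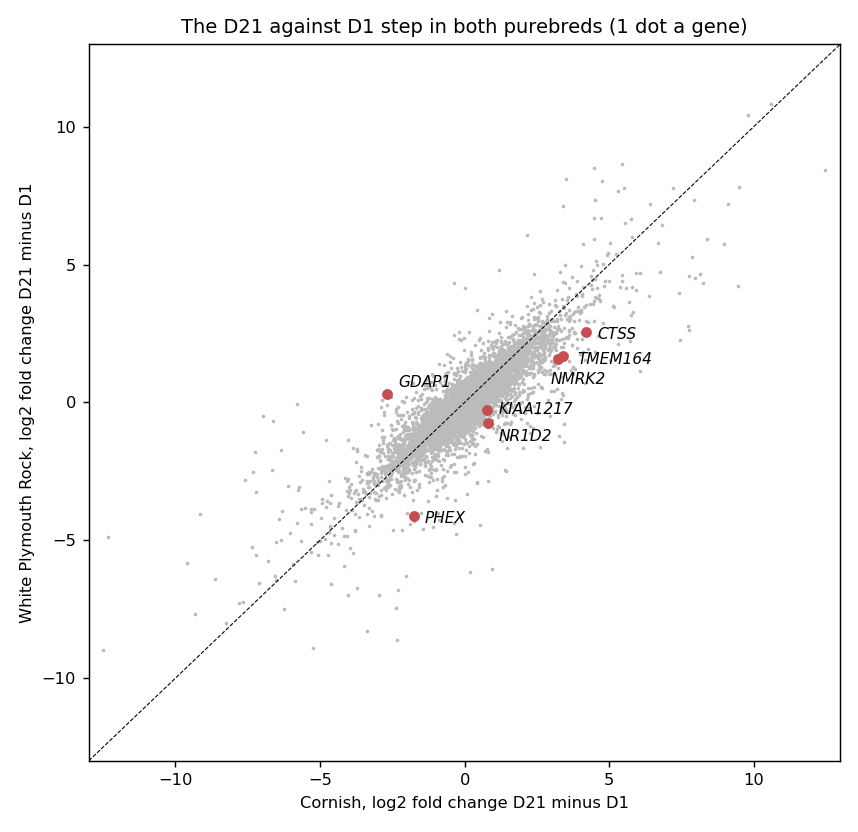
Log2 fold change, D21 minus D1, in White Plymouth Rock (vertical axis) against Cornish (horizontal axis), 1 dot for each of 11835 genes, with the line of equal steps dashed. Most genes lie along the line, and the 7 genes whose steps differed at an adjusted p of 0.0494 are marked in red and named.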

How the data were processed

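RNA from chicken breast muscle was sequenced, and 12 of 72 libraries (6 White Plymouth Rock D21, 6 D1) were compared. Per the submitters' processing notes, cutadapt 4.4, HISAT2 2.2.1, StringTie and the build GRCg7b were used. Annotation, strand setting and filters were, however, not given in the sources used here. Each deposited value is an estimated count of 1 gene made by the authors, a whole number without normalisation. Between 1 and 20, 33.2% of these numbers divide by 4, and equal use of all of them would give 25%. Without strand, genes that overlap or lie antisense cannot be told apart, and near-identical copies may share counts. Sequences were not used here, and positions come from RefSeq's GRCg7b gene table, matched by symbol for 11541 of 12046 genes.

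The counts, with no rounding needed, were tested in edgeR 4.0.16 (R 4.3.3) with TMM, filterByExpr, the quasi-likelihood F test and Benjamini-Hochberg adjustment over all genes tested, with a threshold of 0.05. Every adjusted p is from that test unless another tool is named. The fit held the 12 libraries; differences between breeds used the 36 D21 and D1 libraries of 3 breeds with 1 spread per gene. In simulated counts the script for the test called most of the known changes but missed part of those of 2-fold. The 33 gene lists are described by counts and medians only. Members not in the table were left out. For glycolysis and glycogen 38 of 50 members were tested, and for oxidative phosphorylation 52 of 80. Members, lists and rules were chosen with earlier results of these data known. The naming rule took genes that have a symbol and average 5 CPM or more: the 12 that rose and the 12 that fell by the largest fold without overlap of libraries; the 5 of largest rise and the 5 of largest fall in CPM; up to 2 higher and 2 lower members of each list; 9 fixed growth and ribosome genes; and up to 4 each way per breed difference. List members given with an estimate and standard error alone, all mitochondrial and chromosome 16 genes, and ratios were added after values were seen. Some genes the rule picks are not reported here. Same-numbered D21 and D1 libraries did not deviate together (correlations -0.0787 to 0.0815), so the numbers were not taken as pairs. Alternatives were DESeq2 1.42.0, other scalings and filters, larger fits, a test against a 2-fold change, the replicate block and leaving out each of the 12 libraries. For breed differences the crossbred D1 library of lowest total was also left out. Leaving out D1 libraries 1 and 6 together, and dividing counts by 4, were chosen after seeing the data.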

Additional observations from a re-analysis of the deposited data

Results flagged for a closer look

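Each named gene and each summed list was checked in both groups for 1 library far from the other 5. Of 352 such groups, 39 had one, 16 at D21 and 23 at D1. The nominal rate of the check, 1 in 20, assumes independent groups of normally distributed values. CPM were used without a log scale and the groups share the same 12 libraries, so the count is not set against chance. D21 library 6 was the far one in 11 and D1 library 6 in 8.

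D21 library 6 was high for TNC at 279 CPM (next 92.3), SQLE at 28.4 CPM (next 10.6), ATF3 at 796 CPM (next 108), HSPB9 at 763 CPM (next 146), EGR3 at 47.6 CPM (next 4.01), DUSP1 at 210.0 CPM (next 87.5), DNAJA4 at 41.8 CPM (next 23.9), MB at 4.14 CPM (next 1.83), HSPB7 at 34.6 CPM (next 14.1), CSRP3 at 3.61 CPM (next 1.77) and the sum of the immediate early list at 8559 CPM (next 2263). D21 library 1 was high for IGFBP2 at 14.4 CPM (next 10.2), COL11A1 at 8.07 CPM (next 4.52) and the sum of the endothelial list at 2725 CPM (next 2239). D21 library 2 was high for PNPLA2 at 371 CPM (next 288) and AvBD1 at 0.221 CPM (next 0.0754).

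D1 library 1 was high for TCAP at 479.8 CPM (next 165), HSPB9 at 138 CPM (next 45.2) and the sum of the myogenic regulators list at 9599 CPM (next 6706). D1 library 1 was low for RYR3 at 233 CPM (next 400.0) and ACVR2B at 5.05 CPM (next 10.7). D1 library 2 was high for MB at 41.7 CPM (next 9.67), MYL10 at 90.0 CPM (next 32.5) and MYL3 at 294 CPM (next 103). D1 library 3 was high for RPL3L at 61.8 CPM (next 17.3), PLIN1 at 10.2 CPM (next 1.61) and MYOG at 27.8 CPM (next 9.55). D1 library 4 was high for COL8A1 at 22.7 CPM (next 11.8) and ETFA at 713 CPM (next 431). D1 library 5 was high for JCHAIN at 0.265 CPM (next 0.0529) and MMRN2 at 50.2 CPM (next 34.8). D1 library 6 was high for TF at 34.5 CPM (next 21.4), IRS2 at 468 CPM (next 72.2), PPARGC1A at 116 CPM (next 58.3), HSPB7 at 424 CPM (next 127), PHEX at 28.1 CPM (next 16.5), TRIM71 at 92.0 CPM (next 35.0), AvBD1 at 30.8 CPM (next 10.9) and the sum of the fasting and fuel switch regulators list at 7561 CPM (next 3486).

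The step differed between White Plymouth Rock and Cornish, by the test of the difference itself, for 7 genes. White Plymouth Rock minus Cornish, the difference of log2 fold changes was -1.56 for NR1D2, -1.06 for KIAA1217, -1.65 for NMRK2, -1.63 for CTSS, 2.99 for GDAP1, -2.38 for PHEX and -1.73 for TMEM164.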

How the results depend on the processing

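Of 3461 values of single genes under the alternatives, 3245 kept their direction and their side of the threshold. Another 200 were no longer called, 15 became called and 1 reversed. That 1 was IGF2, at -0.00185 with library totals, where the median of all genes was lower. These values pool the step of the named genes with the differences to Cornish of the 7 called genes and of NR1D1. Many of the lost and gained calls were of these differences. The count of 5712 genes ran from 5217 to 6054 when 1 library was left out (2471 to 2884 higher, 2729 to 3170 lower), and genes changed by 2-fold or more from 2129 to 2274 (1121 to 1192 higher, 997 to 1087 lower). DESeq2 called 6100 genes, of which 5655 were among the 5712; counts divided by 4 gave 5518. With the replicate block 5223 genes were called; with D1 libraries 1 and 6 left out, 6175. With library totals 1714 genes were higher. Tested against a 2-fold change (glmTreat), 956 genes passed, 530 higher and 426 lower. Of 6 D21 libraries, 2 correlated best with the D1 library of their number.

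The 7 differences to Cornish depended on the setting, in number and in the genes called. DESeq2 called 68, and 0 were called with median-of-ratios scaling, with library totals or with no filter. A mean of at least 1 CPM gave 12. All 72 libraries gave 14, but CTSS and PHEX were not called there (adjusted p = 0.114 for each). The replicate block gave 2, leaving out the crossbred D1 library of lowest total 4, and leaving out D1 libraries 1 and 6 gave 2. Leaving out 1 of the 12 White Plymouth Rock libraries gave 0 to 21, and no single Cornish library was left out. The cause was not tested. The 0 differences to the crossbred became 1 by DESeq2. They stayed 0 when 1 of the 12 White Plymouth Rock libraries or the crossbred D1 library of lowest total was left out. For D21 against D1, the median standard error was 0.598 for genes up to 1 CPM, 0.276 from 1 to 10 CPM and 0.142 from 10 to 100 CPM. Counting error and the spread between libraries were not separated, and only 6 libraries a group were available.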

Other observations

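LECT2 and the beta-defensin gene DEFB4A were picked after their values were seen, and nothing is claimed of the genes of any cell type from them. LECT2 averaged 0.379 ± 0.196 CPM at D21 and 41.8 ± 31.5 CPM at D1 in White Plymouth Rock, 0.715 ± 0.497 CPM at D21 and 3.49 ± 4.03 CPM at D1 in Cornish and 3.39 ± 4.42 CPM at D21 and 3.48 ± 4.17 CPM at D1 in the crossbred (SD, n = 6 each). The step of LECT2 in White Plymouth Rock was not called as different from that in Cornish (-4.49 ± 1.45, edgeR, adjusted p = 0.259) or in the crossbred (-6.78 ± 1.46, adjusted p = 0.469). DEFB4A averaged 0.0108 ± 0.0265 CPM at D21 and 5.79 ± 4.65 CPM at D1 in White Plymouth Rock, 0.0127 ± 0.0310 CPM at D21 and 0.484 ± 0.711 CPM at D1 in Cornish and 0.389 ± 0.565 CPM at D21 and 0.592 ± 0.797 CPM at D1 in the crossbred (SD, n = 6 each). The step of DEFB4A in White Plymouth Rock was not called as different from that in Cornish (-3.67 ± 3.36, edgeR, adjusted p = 0.802) or in the crossbred (-8.32 ± 2.00, adjusted p = 0.521).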
